A study of Mus musculus with 8 samples.

Results

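The regions described here are the 227 accessible regions, of 26620 counted across the autosomes (0.853%), that lie in 5 windows of the mouse genome taken as tandem-repeat tracts. A region belongs if its midpoint falls, in build mm9, at 175 to 178.2 Mb of chromosome 2 (59 regions), 45 to 48 Mb of chromosome 7 (14 regions), 88 to 90 Mb of chromosome 12 (55 regions), 3 to 9 Mb of chromosome 14 (38 regions, called the proximal chr14 tract) or 41 to 45 Mb of chromosome 14 (61 regions, the distal chr14 tract). The windows were chosen by values measured in these same 8 libraries, in which regions there differed between libraries. That the libraries differ is therefore how the members were selected and not a result. The question asked is which libraries are high or low, over how many neighbouring regions at a time, and whether this follows genotype.

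Accessibility was measured by ATAC-seq, in which a transposase cuts open chromatin and tags the cut ends for sequencing. The material was E9.5 mouse tailbud, from WT/WT embryos (WT, 4 libraries) and from Sd/Sd embryos (4 libraries), which carry the semidominant tail-shortening allele Danforth's short tail on both chromosomes. Both genotypes came from the outbred CD-1 background. A library could hold material of up to 2 mice, without a record here of which ones did, so p-values reflect only how far these libraries differ among themselves. The tissue label was not checked against marker genes, because regions were not matched to genes. As background, a tandem array is a stretch in which a unit, often a gene, is repeated side by side. Copies are gained and lost when misaligned arrays recombine, so animals of an outbred stock can carry different numbers of copies. Reads from near-identical copies can be placed at any of them, and the count at 1 position then stands for many copies. A count rises with the number of copies and with how open each copy is, and the counts used here cannot tell these apart.

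To show what near-identical copies look like on chromosomes 2 and 14, promoters (250 bases before to 50 after the gene start) were read from RefSeq on GRCm38.p6. That build differs from mm9, so these coordinates cannot be set beside those of the counted regions, and no promoter was assigned to a region. A nearby gene joined a run when its promoter shared at least 50% of 12-base words with that of any 1 gene in the run. Among 25748 autosomal genes, 359 runs held at least 2 genes, and 5 runs held at least 20 genes. Of these 5, a pair lay on chromosome 14, with 32 genes from Gm2888 to Gm10338 and 30 genes from Gm31895 to Gm8256, 1 lay on chromosome 2, with 26 genes from Gm14391 to Zfp931, and none lay on chromosome 12. The longest, of 44 genes, was the Vmn1r run of chromosome 7, which encodes vomeronasal pheromone receptors. Chromosome 7 also held the remaining run, of 21 genes from Vmn2r30 to Vmn2r51. As background, Zfp genes of the chromosome 2 kind encode KRAB zinc finger proteins, many of which silence transposable elements, and the proximal chromosome 14 genes include the alpha-takusan family, known for regulating synapses. The 3 pairs of copies below are shown as examples of close copies. Compared position by position, with a shift of at most 10 bases, the median pair within a run was 29.5% identical on chromosome 2 and 34.2% and 31.1% in the chromosome 14 runs. Capitals mark the bases at which the 2 copies of a pair differ. Gm4724 (chr2:175435728-175436027, minus strand) and Gm14288 (chr2:175800989-175801288, minus strand) differed at 16 of 300 bases.
Gm4724: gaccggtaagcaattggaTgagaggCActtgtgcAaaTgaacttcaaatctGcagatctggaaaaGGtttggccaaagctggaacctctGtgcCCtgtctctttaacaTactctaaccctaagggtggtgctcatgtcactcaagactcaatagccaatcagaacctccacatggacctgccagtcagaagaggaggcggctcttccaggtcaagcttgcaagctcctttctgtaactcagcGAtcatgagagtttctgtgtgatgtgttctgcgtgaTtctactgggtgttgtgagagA
Gm14288: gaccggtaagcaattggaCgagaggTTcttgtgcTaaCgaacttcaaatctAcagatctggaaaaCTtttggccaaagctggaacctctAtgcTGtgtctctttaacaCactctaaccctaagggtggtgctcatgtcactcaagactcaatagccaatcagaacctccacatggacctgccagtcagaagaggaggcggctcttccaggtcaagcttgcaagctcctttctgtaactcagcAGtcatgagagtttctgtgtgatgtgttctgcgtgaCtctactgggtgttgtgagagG
Gm10338 (chr14:7595480-7595779, minus strand) and Gm8279 (chr14:5131332-5131631, plus strand), from the proximal run, differed at 1 base.
Gm10338: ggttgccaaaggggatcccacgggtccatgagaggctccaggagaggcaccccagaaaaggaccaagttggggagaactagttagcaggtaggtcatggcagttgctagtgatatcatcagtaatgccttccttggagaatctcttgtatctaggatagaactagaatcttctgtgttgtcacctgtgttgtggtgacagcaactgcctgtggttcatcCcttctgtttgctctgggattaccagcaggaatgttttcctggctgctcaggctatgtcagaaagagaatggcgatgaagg
Gm8279: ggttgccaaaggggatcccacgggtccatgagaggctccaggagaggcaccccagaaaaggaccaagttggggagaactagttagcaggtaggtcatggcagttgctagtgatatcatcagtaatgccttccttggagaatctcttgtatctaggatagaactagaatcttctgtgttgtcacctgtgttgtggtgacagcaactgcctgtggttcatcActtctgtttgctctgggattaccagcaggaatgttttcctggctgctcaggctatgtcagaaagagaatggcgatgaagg
Gm8005 (chr14:42439647-42439946, minus strand) and Gm8068 (chr14:41701859-41702158, minus strand), from the other chromosome 14 run, differed at 4 bases.
Gm8005: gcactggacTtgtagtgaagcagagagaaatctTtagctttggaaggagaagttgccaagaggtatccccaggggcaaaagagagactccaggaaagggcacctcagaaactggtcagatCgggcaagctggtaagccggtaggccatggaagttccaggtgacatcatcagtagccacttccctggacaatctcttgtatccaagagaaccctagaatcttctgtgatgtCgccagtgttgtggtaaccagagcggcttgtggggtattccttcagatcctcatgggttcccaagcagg
Gm8068: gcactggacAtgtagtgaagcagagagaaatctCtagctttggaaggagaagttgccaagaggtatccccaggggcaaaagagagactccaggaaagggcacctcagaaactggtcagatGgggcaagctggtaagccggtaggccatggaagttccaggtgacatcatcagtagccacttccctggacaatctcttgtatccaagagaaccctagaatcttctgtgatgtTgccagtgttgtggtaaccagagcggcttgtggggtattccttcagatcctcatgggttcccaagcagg
In 12-base words, the median pair shared 59.5% within the chromosome 2 run, 53.8% and 54.3% within the chromosome 14 runs, and 2.08% between the chromosome 14 runs. Position-by-position identity, which allows no gaps, hardly told any runs apart. Its median was 30.4% between the chromosome 14 runs, with a closest pair at 64.7%. Between the chromosome 2 run and the 2 chromosome 14 runs it was 30.3% and 30.1%, where the median pair shared 0% of words. The low identities within runs therefore do not show how alike the copies are.

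Values are CPM, the deposited count of a region over the library's total count over all 26620 regions, scaled to 1000000. Totals ran from 2873918 (WT replicate 3) to 4180434 (Sd/Sd replicate 4), and members took 0.821% to 0.974% of them. The median member had a mean of 92.0 counts per library. Co-movement was described by Pearson's r of log2 CPM over the 8 libraries. No p is attached to it, since neighbouring regions share libraries, depth and possibly reads.

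Members moved together with their neighbours more often than regions at large. Of 222 pairs of neighbouring members, 47 had an r of at least 0.7, against 4.85% of all 26601 neighbouring pairs. The median r was 0.30 over member pairs and 0.11 over all pairs. In the tracts, 86 of 227 members differed at least 2-fold between their highest and lowest library, against 17.2% of all regions. Both contrasts partly restate how the windows were chosen. Pairs were also not matched for spacing, and the median gap was 46.9 kb over all pairs. In the tracts it was 16.2 kb (chr2), 8.6 kb (chr7), 23.0 kb (chr12), 79.1 kb (proximal chr14) and 22.2 kb (distal chr14). A member was called a follower of its tract when its r with the mean of the other members was at least 0.7. There were 76 followers and 151 others, and 53 of the followers spanned at least 2-fold. Since followers were picked for moving with their tract, their agreement with each other, and the flatter sum of the others, are set by that choice and are given as description only.

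**Figure D1:**
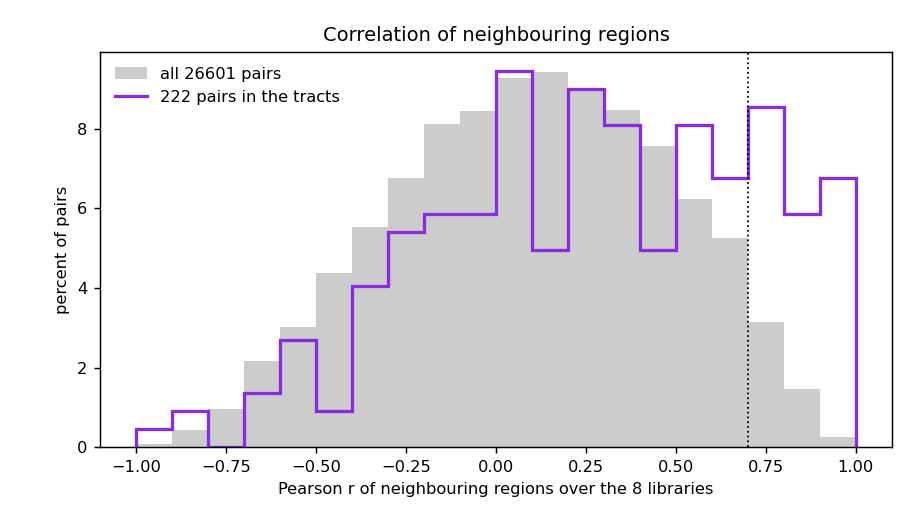
Percent of neighbouring region pairs (y axis) by their Pearson r over the 8 libraries (x axis), for all 26601 pairs (grey) and the 222 pairs inside the tracts (purple line); the dotted line is at 0.7. The purple line lies above the grey at r of 0.7 and more, where 47 member pairs fall.

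The chr7 tract gave the widest range. Its 6 followers were its first 6 regions, an unbroken block from 46.44 to 46.60 Mb, and the 8 regions after them did not follow. The largest was chr7:46458423-46460695. It had 33.3, 102, 101 and 50.9 CPM in WT replicates 1 to 4 and 44.7, 51.8, 41.0 and 13.9 CPM in Sd/Sd replicates 1 to 4. WT replicates 2 and 3 were high, Sd/Sd replicate 4 was low, and the genotypes overlapped. The neighbour chr7:46455543-46456144 had the same libraries high and low, at 15.1, 51.7, 45.2 and 22.0 CPM in WT and 16.9, 27.5, 16.3 and 5.98 CPM in Sd/Sd. So did chr7:46585601-46586634, at 12.2, 52.7, 50.8 and 28.4 CPM in WT and 21.1, 23.0, 18.4 and 6.70 CPM in Sd/Sd. In each, WT replicates 2 and 3 stood together above the other 6 libraries. Summed over the 6 followers, the level was 92.1, 305, 296 and 153 CPM in WT and 126, 164, 114 and 36.4 CPM in Sd/Sd, an 8.38-fold range, and 3.31-fold without Sd/Sd replicate 4. WT replicate 2 exceeded Sd/Sd replicate 4 by 7.33-fold to 10.96-fold at the 6 followers, with a median of 9.06-fold. Sd/Sd replicate 4 had the largest total count of all libraries, and the summed level of the 8 other members ranged only 1.08-fold. Among these others was chr7:46772683-46773878, the most accessible member of the tract, at 121.7, 111.3, 119.3 and 120.6 CPM in WT and 110.3, 110.4, 108.6 and 116.7 CPM in Sd/Sd, a range of 1.12-fold.

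The pattern of the chr7 followers reached beyond the window. No region was counted between 39.33 and 46.44 Mb. Of the last 10 counted regions before the tract, 4 had an r of at least 0.7 with the followers, as did 2 of the next 10 after it. The closest match, at r of 0.99, was chr7:38960911-38963835, with 112, 366, 357 and 167 CPM in WT and 162, 219, 124 and 46.2 CPM in Sd/Sd. WT replicates 2 and 3 were again the highest and Sd/Sd replicate 4 the lowest. The regions starting at 39.17, 39.32 and 39.33 Mb had r of 0.89, 0.97 and 0.95. The library profile of the followers thus also appeared on the far side of a gap without counted regions.

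In the chr2 tract 30 of 59 members were followers, the most of any tract. Followers lay from 176.58 to 177.98 Mb, and the first 16 regions of the tract were all followers. WT replicate 1 was low and WT replicate 2 high. At chr2:176990558-176991568, the member with the highest r with the rest, WT had 81.1, 257, 213 and 171 CPM and Sd/Sd had 174, 146, 151 and 201 CPM. At chr2:176857577-176860958, the most accessible member, WT had 121, 326, 254 and 218 CPM and Sd/Sd had 211, 208, 194 and 197 CPM. At chr2:177273836-177275692, WT had 41.4, 140, 114 and 96.0 CPM and Sd/Sd had 85.5, 71.5, 85.1 and 88.0 CPM. In all 3 the lowest and the highest library were both WT, with the Sd/Sd libraries between them. Summed over followers, the level was 1206, 2564, 2226 and 1934 CPM in WT and 1896, 1835, 1757 and 2028 CPM in Sd/Sd. The ratio of WT replicate 2 to WT replicate 1 was not constant: its median was 2.05, its lowest value 1.32 at 177.76 Mb and its highest 11.9 at the tract's first region. That region, chr2:176583466-176583870, is thinly covered, with 5 counts (1.45 CPM) in WT replicate 1 against 17.2 CPM in WT replicate 2. The 29 other members together ranged 1.16-fold. Of the 10 regions before the tract, 3 had an r of at least 0.7 with the followers. Highest among them, at r of 0.99, was chr2:174788150-174791405, with 52.7, 162, 143 and 96.9 CPM in WT and 101, 106, 100.4 and 119 CPM in Sd/Sd. None of the 10 regions after the tract reached 0.7. Without WT replicate 1 the range of the summed level of all members fell from 1.66-fold to 1.28-fold.

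**Figure D2:**
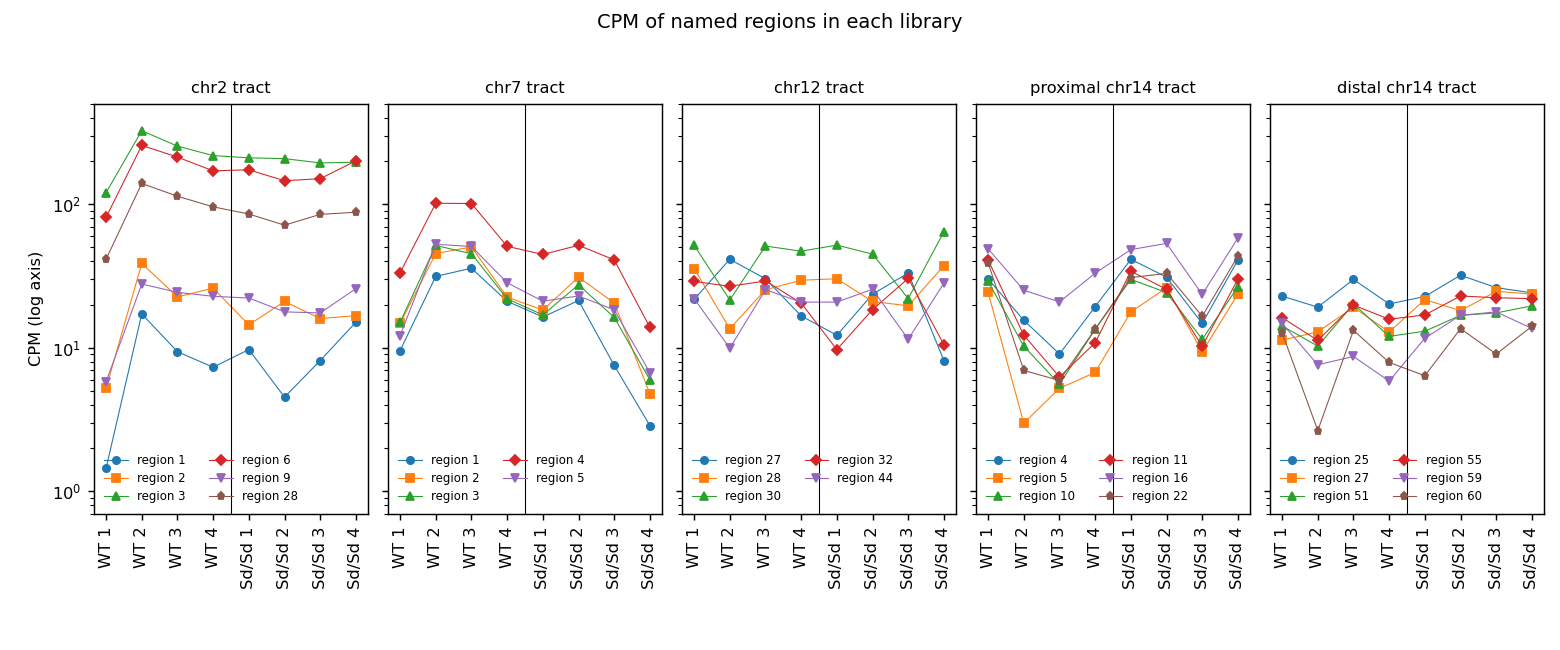
CPM (log axis) in each of the 8 libraries, WT left and Sd/Sd right of the line, for the members of each tract with the highest r or the largest SD, numbered in order along the tract. Curves of chr7 and chr2 run largely in parallel, and those of chr12 cross: all 5 of chr7 have their lowest point in Sd/Sd replicate 4, and all 6 of chr2 in WT replicate 1.

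In the proximal chr14 tract the libraries fell into a high and a low set that crossed genotype. The 17 followers lay from 4.29 to 8.49 Mb, with 5 non-followers among them, and the 14 regions after them did not follow. At chr14:6011307-6012721, WT had 29.0, 10.3, 5.57 and 13.5 CPM and Sd/Sd had 30.0, 24.3, 11.5 and 26.6 CPM. At chr14:8320087-8321555, WT had 39.1, 6.95, 5.92 and 13.5 CPM and Sd/Sd had 30.8, 33.0, 16.6 and 43.5 CPM. At chr14:4518031-4518815, WT had 24.3, 2.98, 5.22 and 6.73 CPM and Sd/Sd had 17.8, 26.2, 9.35 and 23.7 CPM. WT replicate 1 stood with Sd/Sd replicates 1, 2 and 4, and Sd/Sd replicate 3 stood nearer to the other 3 WT libraries. The summed level of followers was 603, 340, 270 and 411 CPM in WT and 656, 583, 348 and 699 CPM in Sd/Sd, a 2.59-fold range. The ratio of Sd/Sd replicate 4 to WT replicate 3 had a median of 4.37 over followers and ran from 1.25 at 8.49 Mb to 7.36 at 8.32 Mb. The ratio thus differed between followers. The highest library was Sd/Sd replicate 1, 4 and 2 at the 3 regions above, and the lowest WT replicate 3, 3 and 2. These ranks rest on small gaps, as 30.0 against 29.0 CPM at chr14:6011307-6012721, and on low levels, as 2.98 against 5.22 CPM at chr14:4518031-4518815. Whether the ranks differ beyond counting noise was not tested. The follower at 8.49 Mb, chr14:8490025-8491747, was also among the most accessible members, at 44.0 to 64.1 CPM over the 8 libraries.

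A few members of the proximal chr14 tract moved against the followers. At chr14:7937949-7938285, between followers, WT had 9.85, 19.5, 23.7 and 14.4 CPM and Sd/Sd had 10.6, 14.2, 13.6 and 12.9 CPM, with r of -0.84 against the followers. WT replicate 3, the lowest library at the followers, was the highest here. The other members at r of -0.7 or below were chr14:4213238-4214678 (-0.72) and chr14:8598361-8598930 (-0.76). How often regions at large reach such an r against these followers was not computed, so the opposed members are given as description only. At 18 of the 38 members, r with the followers lay between -0.7 and 0.7, so not all of the tract moved with them. No region of chromosome 14 was counted before the tract, and none of the 10 after it followed.

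In the chr12 tract 11 of 55 members followed, all between 89.10 and 89.61 Mb, where 24 members lie. WT replicate 2 and Sd/Sd replicate 3 were low there. At chr12:89235101-89236265, WT had 51.9, 21.5, 51.1 and 47.1 CPM and Sd/Sd had 51.9, 45.0, 22.0 and 64.4 CPM. The 2 low libraries were 1 of each genotype, and the other 6 lay between 45.0 and 64.4 CPM. At chr12:89538140-89539017 the same libraries were lowest, at 22.0, 9.93, 25.4 and 20.8 CPM in WT and 20.8, 25.6, 11.5 and 28.2 CPM in Sd/Sd. The summed level of followers was 541, 342, 502 and 499 CPM in WT and 572, 514, 307 and 689 CPM in Sd/Sd.

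Interleaved with the chr12 followers were regions that moved oppositely. At chr12:89191628-89192286, between followers, WT had 21.7, 41.4, 30.3 and 16.7 CPM and Sd/Sd had 12.2, 23.6, 33.2 and 8.13 CPM, with r of -0.84 against the followers. At chr12:89347595-89349042, WT had 51.3, 73.8, 51.9 and 35.4 CPM and Sd/Sd had 27.5, 40.5, 67.0 and 32.5 CPM, with r of -0.83. WT replicate 2 and Sd/Sd replicate 3, low at the followers, were the 2 highest libraries at both regions. Only these 2 of the 55 members had r of -0.7 or below. The share of regions at large that would do so was not computed. Likewise opposed, chr12:89327074-89328195, had r of -0.64 and gave 29.0, 26.8, 29.2 and 20.5 CPM in WT and 9.72, 18.4, 30.5 and 10.5 CPM in Sd/Sd. Summed over all 55 members the tract ranged 1.17-fold, and the sum of the 44 other members, opposed regions included, ranged 1.05-fold. None of the 10 regions on either side had an r of 0.7 or more. The 11 followers became 5 without WT replicate 2.

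The distal chr14 tract showed the weakest co-movement. Its 12 followers were scattered from 42.54 to 44.69 Mb among 28 non-followers. Only 2 of its 60 neighbouring pairs reached r of 0.7, against 4.85% of all neighbouring pairs. Strongly correlated neighbours were thus no commoner here than among regions at large. The 3 highest r belonged to regions of modest level. At chr14:44561633-44561991, WT had 16.2, 11.3, 19.8 and 15.8 CPM and Sd/Sd had 16.9, 23.0, 22.3 and 22.0 CPM. At chr14:42767263-42768407, WT had 22.9, 19.2, 29.9 and 20.2 CPM and Sd/Sd had 22.8, 32.0, 26.2 and 24.2 CPM. WT replicate 2 was lowest at both. The summed level of followers was 301, 260, 345 and 273 CPM in WT and 334, 409, 379 and 393 CPM in Sd/Sd. Only WT replicate 3 and Sd/Sd replicate 1 overlapped, and the range was 1.57-fold. The follower count fell from 12 to 7 without WT replicate 2, and to 7 when the genotype mean was taken off each value.

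**Figure D3:**
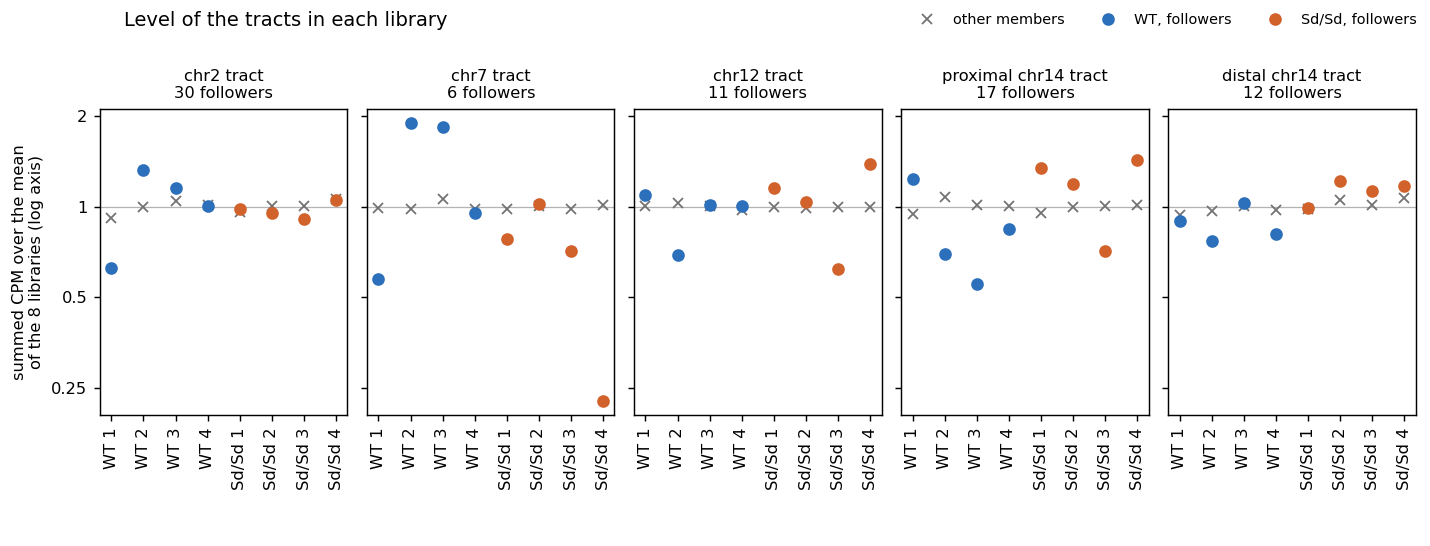
Summed CPM in each library over the mean of the 8 libraries (log axis), for the followers of each tract (circles, WT blue and Sd/Sd orange) and for its other members (crosses). Crosses stay near 1 in every tract, which the split favours, and the circles show a different set of high and low libraries in each, with genotypes overlapping in all 5.

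The order of libraries changed from tract to tract. Sd/Sd replicate 4 was the lowest library at the chr7 followers and the highest at the followers of chr12 and proximal chr14. WT replicate 2 was the highest at chr2 and chr7 and the lowest at distal chr14. WT replicate 1 was lowest at chr2 and among the high libraries at proximal chr14. The other members of the same tracts ranged 1.05-fold to 1.16-fold in sum, which the split by co-movement favours and which in chr12 covers opposed regions that ranged up to 5.09-fold.

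Peak calls, made by the authors in each library alone, followed the counts in part. In the proximal chr14 tract 18, 20, 22 and 25 peaks were called in WT replicates 3, 2, 4 and 1, and 23, 30, 35 and 38 in Sd/Sd replicates 3, 2, 1 and 4. They covered from 9614 bases (WT replicate 3) to 30025 bases (Sd/Sd replicate 4). In the chr7 tract, WT replicate 3 had 20 peaks, Sd/Sd replicate 4 had 9 and WT replicate 1 had 8. Sd/Sd replicate 4 had the most peaks in the other 4 tracts and also the largest total count. Of the 76 followers, 18 had a peak in all 8 libraries, none of them on chromosome 7. For those 18, the peak caller's fold enrichment of the peak over its surroundings could be set against CPM. Where several peaks of a library overlapped a region, the highest enrichment was taken. At chr2:176990558-176991568 enrichment was 9.13 in WT replicate 1, where CPM was lowest, and 4.63 to 5.37 in the other 7 libraries. At chr2:176857577-176860958 it was 2.16 to 2.70 in all 8, while CPM ranged 2.70-fold. At chr2:177573802-177575482 it was 3.69 to 4.48 while CPM went from 132 to 218. Over the 10 such chr2 followers the median r of enrichment with CPM was -0.03, against 0.37 over 10992 regions with a peak in all libraries. It was -0.17 over the 2 such followers of chr12 and -0.04 over the 2 of distal chr14. In the proximal chr14 tract the 4 such followers had a median r of 0.78. At chr14:8146450-8148156 enrichment was 3.81, 2.93, 3.05 and 4.42 in WT and 4.81, 3.31, 3.15 and 4.39 in Sd/Sd. At these 4 followers enrichment tended to be higher in the libraries with more counts, and at the 10 of chr2 it did not. What a peak's surroundings are in an array, copies of the same unit or sequence outside it, was not tested.

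The difference between genotypes took a smaller share of the movement in 2 tracts than in the other 3. Whether any share exceeds what 4 against 4 libraries give by chance was not tested. As a share of the variance of the mean follower profile, the difference between genotypes took 0.12% in chr2, 2.51% in chr12, 28.3% in chr7, 32.7% in proximal chr14 and 43.8% in distal chr14. For regions taken singly, an unlike measure, the median share was 8.88% over members and 8.58% over all regions. Follower levels were 1983 ± 578 CPM (WT) and 1879 ± 114 CPM (Sd/Sd) in the chr2 tract, and 471 ± 88.2 and 521 ± 160 in the chr12 tract (n = 4 libraries a genotype, mean ± SD). They were 212 ± 106 and 110.0 ± 53.5 CPM in the chr7 tract, 406 ± 143 and 572 ± 157 in the proximal chr14 tract, and 295 ± 37.7 and 379 ± 32.3 in the distal chr14 tract. The means differed by less than the larger SD in chr2, chr12 and chr7, and by more than both SDs in the chr14 tracts, where the levels still overlapped.

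Tested region by region (edgeR's quasi-likelihood test over all 26620 regions, Benjamini-Hochberg adjustment), 1 of 227 members passed an adjusted p of 0.05, against 0.0188% of all regions. It was chr14:42712670-42714012 in the distal chr14 tract, higher in Sd/Sd, with 80.6, 82.8, 95.7 and 73.5 CPM in WT and 119, 112, 109 and 120 CPM in Sd/Sd. The lowest Sd/Sd library lay above the highest WT library (log2 fold change 0.48, SE 0.093, edgeR adjusted p = 0.00567, 0.0714 without WT replicate 4). It was also a follower, at r of 0.71 with the other members. At an unadjusted p under 0.05, 18 members were higher in Sd/Sd, against 2.98% of all regions, and 5 were lower, against 3.09%. Of the 18, 10 lay in the distal and 6 in the proximal chr14 tract, and the chr2 tract had 0 in either direction. The 4 libraries of each genotype did not overlap at 8 members, 4 of them in the distal chr14 tract, against 3.2% of all regions.

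The 2 members of next smallest p were followers of the proximal chr14 tract. At chr14:4958579-4959209, WT had 12.7, 12.6, 8.0 and 14.1 CPM and Sd/Sd had 26.1, 23.9, 11.2 and 25.6 CPM (log2 fold change 0.88, SE 0.21, edgeR adjusted p = 0.172). At chr14:4601790-4602802, WT had 21.2, 10.6, 11.1 and 11.7 CPM and Sd/Sd had 27.8, 24.9, 12.4 and 29.4 CPM (log2 fold change 0.79, SE 0.21, edgeR adjusted p = 0.343). In both, Sd/Sd replicate 3 lay among the WT libraries. The number of tract members past the adjusted threshold changed with the library left out: without WT replicate 1 it was 11, of which 8 were in the proximal chr14 tract, and without Sd/Sd replicate 3 it was 10, of which 7 were there. Without WT replicate 4 it was 0.

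**Figure D4:**
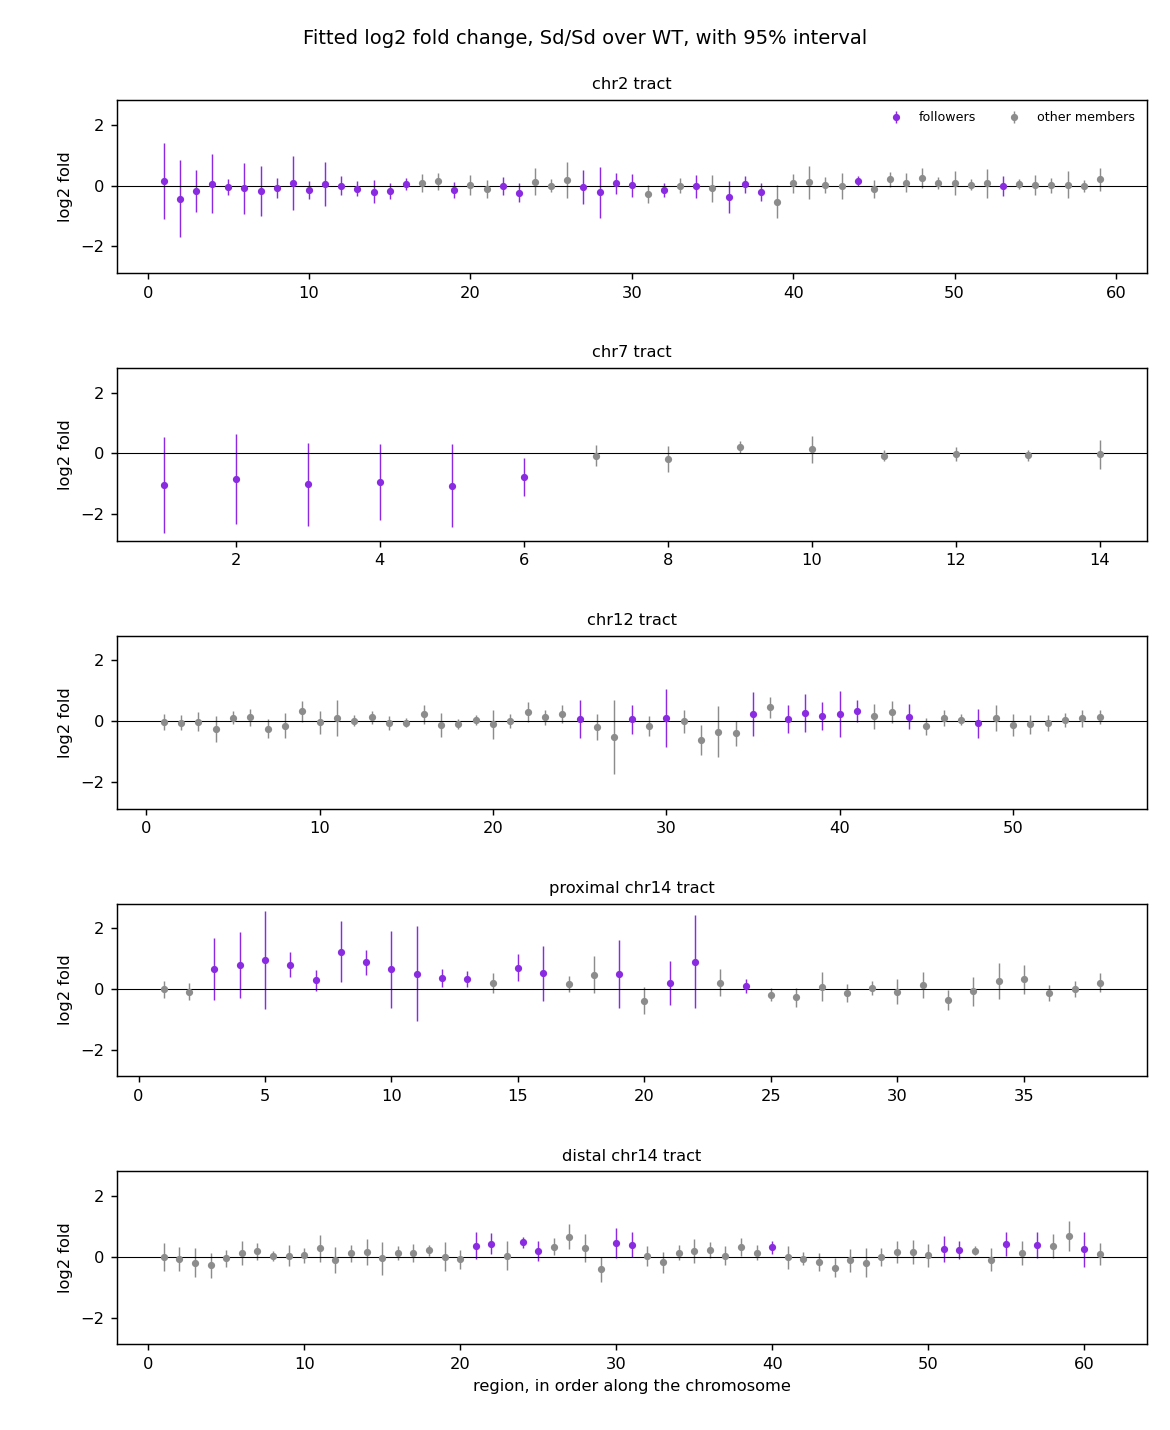
Fitted log2 fold change of Sd/Sd over WT (y axis) with its 95% interval for every member in order along each tract (x axis), followers in purple and other members in grey. Intervals are widest at the chr7 followers and at proximal chr14 followers, and the chr14 values lie mostly above 0.

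The median fitted log2 fold change over members was 0.00 in chr2 (-0.12 without WT replicate 1), -0.13 in chr7, 0.04 in chr12, 0.21 in proximal chr14 and 0.13 in distal chr14, and 0.00 over all regions. The 6 chr7 followers had the largest fitted decreases in the tracts, from -0.77 to -1.06. The interval of 5 of them included 0. At chr7:46458423-46460695 the change was -0.93 (95% interval -2.18 to 0.32, edgeR adjusted p = 0.875), with 71.8 ± 35.0 CPM in WT against 37.8 ± 16.6 CPM for Sd/Sd (SD, n = 4 libraries). The spread within WT, from 33.3 to 102 CPM, was wider than the difference between the genotypes. In the distal chr14 tract, 45 of 61 members had a positive fitted change, against 13347 of 26620 regions. The members share the same libraries, so this is not a count of independent observations of genotype. The median log2 fold change of this tract was 0.0756 to 0.161 with 1 library left out. Taking the genotype mean off each value lowered the median r of neighbours there from 0.22 to 0.13, left it at 0.39 in chr2, moved it from 0.34 to 0.33 in proximal chr14 and raised it from 0.27 to 0.38 in chr12. In the chr7 tract it went from 0.29 to 0.21.

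At the start of chr2 the first member, thinly covered, differed 11.9-fold between libraries and the region just outside 1.77-fold. At the start of chr7 the values were 12.5-fold and 5.69-fold. The region outside differed more at the start of chr12 (1.33-fold inside, 4.52-fold outside) and at the end of distal chr14 (1.73-fold and 1.83-fold). The 10 members next to a bound differed 1.33-fold to 12.5-fold between libraries, with a median of 1.93-fold, and the 9 regions just outside differed 1.27-fold to 5.69-fold, with a median of 1.77-fold. Whether the movement of any tract came from copies carried by the embryos was not tested, since no DNA input or genotype of the arrays was used here.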

How the data were processed

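ATAC-seq counts of 8 libraries (4 WT, 4 Sd/Sd) were used as deposited by the authors: whole-number counts over 1 shared set of 26620 mm9 regions, not normalized. Broad peaks were called by the authors per library. In the authors' peak lists a peak has a score, its enrichment as a fold ratio over the local background and −log10 p and q values. Of these only positions and fold enrichment were used. Per the submitters' processing notes reads were handled with BWA 0.7.15-r1140, and peaks with MACS2 2.1.1.20160309 and bedtools 2.26.0 among other tools, in roles those notes leave unstated. Mapping filters and the treatment of reads with several matches are not given in the sources, and they bear directly on counts in repeats. The members, the windows, the follower threshold of 0.7 and all lists were chosen with earlier results of these data known.

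CPM used the library total, log2 values a pseudocount of 0.5. Totals of 2873918 to 4180434 counts set the precision. Genotype was tested with edgeR 4.0.16 (quasi-likelihood, robust, TMM factors 0.989 to 1.01, two-sided; filterByExpr removed 0 regions; common coefficient of variation 11.5%) in R 4.3.3, adjusted over all regions. The procedure was tested on simulated data. Alternatives were DESeq2 1.42.0, limma 3.58.1 (voom), other scalings and filters, a fit with replicate number as a block, and fits without each library. Python 3.11.15 with NumPy 2.4.6 did the rest. Named per tract were members past an adjusted p of 0.05, the 2 of smallest p, the 3 of largest SD and 3 of highest r (mean count of at least 20), and the 2 of highest CPM. Opposed, flanking and peak examples were chosen after their values were seen.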

Additional observations from a re-analysis of the deposited data

Results flagged for a closer look

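In 5 of the 110 groups of 4 libraries examined, 1 library lay far from the other 3 by Dixon's criterion, where chance gives about 1 in 20 groups. At chr7:46704577-46705440 WT replicate 2 had 57.9 CPM, against 71.3 to 73.9 CPM in the other WT libraries. At chr12:89235101-89236265, a follower of the chr12 tract, WT replicate 2 had 21.5 CPM, against 47.1 to 51.9 CPM. At chr14:4601790-4602802 WT replicate 1 had 21.2 CPM, against 10.6 to 11.7 CPM. At chr14:4958579-4959209 Sd/Sd replicate 3 had 11.2 CPM, against 23.9 to 26.1 CPM. At chr14:44561633-44561991 Sd/Sd replicate 1 had 16.9 CPM, against 22.0 to 23.0 CPM.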

How the results depend on the processing

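The 1 member past the adjusted threshold became 4 with limma voom, 8 with a replicate block, 5 without robust variance (added after the data were seen), and 0 to 11 with 1 library left out. The 18 members higher at an unadjusted p under 0.05 became 29 with the replicate block and 12 to 32 with 1 library left out. The 5 lower became 1 with DESeq2, 12 with voom, 11 with the replicate block, 12 without robust variance and 3 to 21 with 1 library left out. Over all regions the block gave 23 calls in place of 5. Of the 8 members past with the block, 5 in proximal chr14 and 1 in distal chr14 were higher in Sd/Sd. The 2 in chr7 were lower. Deviations of libraries of the same number correlated at 0.0137, 0.0089 and 0.009 for numbers 1 to 3 and at 0.124 for number 4. Between libraries of different number they correlated at -0.0584 to 0.0354, so number 4 stood above all other pairs. The numbers as a whole were not taken as pairs.

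At a mean count of at least 50, the median neighbour r was 0.0315 in chr7 and 0.660 in proximal chr14. With the genotype mean taken off it was 0.375 in chr12. It was 0.322 to 0.496 in proximal chr14 with 1 library left out. The range of tract levels with 1 library left out was 1.28 to 1.66 in chr2, 1.47 to 1.63 in chr7 and 1.16 to 1.17 in distal chr14. Taken as the median over members it was 1.10 in chr12 and 1.22 in distal chr14, and with TMM scaling 1.19 in distal chr14. The median log2 fold change of chr12 went from -0.0276 to 0.0428 with 1 library left out. An r of at least 0.8 left 49 of 76 followers. No alternative tried reversed a called direction, and the causes of the shifts were not tested. Depth limits thin members: at 5 counts, as in WT replicate 1 at 176.58 Mb of chromosome 2, a ratio is coarse.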
